A study of Mus musculus with 9 samples.

Results

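Zinc transporters move zinc across cell membranes, and metallothioneins bind it. They are described here in islets of Langerhans, the hormone-secreting cell clusters of the pancreas, across 3 genotypes of 12-week-old mice. The genes were chosen by symbol: 6 genes of the Slc30 family, 2 of the Slc39 family and the metallothionein genes Mt1 and Mt2. All 10 symbols were found among the 52459 of the deposited count table, and all 10 passed the filter on low counts that left 16826 genes to test. The groups were db/db (homozygous for the db allele of Lepr, the leptin receptor gene), db/+ (heterozygous) and WT (wild type), with 3 RNA sequencing libraries each. All 9 libraries carry the same strain label, on the BKS background. The labels do not say whether a library came from 1 mouse or from pooled mice. The db allele is present in every cell of the mouse, and db/db mice are a model of obesity and diabetes.

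Beta cells store insulin in granules as crystals built with zinc, and they hold more zinc than most other cells. Most proteins of the Slc30 family (ZnT) carry zinc out of the cytosol, either out of the cell or into organelles, while that of Slc30a9 moves it out of mitochondria. Proteins of the Slc39 family (ZIP) carry it into the cytosol. Metallothioneins are small cysteine-rich proteins that buffer zinc and copper. Their genes are switched on by the zinc-sensing transcription factor encoded by Mtf1.

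Levels are given in CPM, the counts per 1000000 counts of a library whose size was corrected by TMM. Values after ± are the SD of the 3 libraries of a group for levels, and the SE for log2 fold changes. Genes were tested by edgeR's quasi-likelihood method, the p-values were adjusted by Benjamini-Hochberg across the whole table, and a gene is said to rise or fall where its adjusted p was below 0.05. Library totals were 8860024 to 11734886 counts, and 3 counts, the limit that a count of 0 allows, came to 0.238 to 0.412 CPM. The db/db libraries enter both comparisons with the other groups, so those comparisons are not independent.

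Libraries differed beyond genotype. Both Xist and Y-linked counts were present in db/db 1, WT 1 and WT 3. Otherwise Xist without Y-linked counts above 1.12 CPM was found in db/db 2 and db/db 3, and Y-linked counts without Xist above 0.722 CPM in WT 2 and all db/+ libraries. Sex makeup and genotype therefore cannot be told apart in db/db against db/+. They are also partly aligned in db/db against WT and in db/+ against WT. Xist was above 0.722 CPM in WT 1 and WT 3 but in no db/+ library. Y-linked counts summed to 176, 1.12 and 0.108 CPM in db/db, below each WT library (219, 342.5 and 235 CPM). No WT library had Xist without Y-linked counts. The genes Gm42418 and Lars2, whose loci are known to collect ribosomal RNA reads, took 17.9%, 13.3% and 0.0558% of counts in db/db, at most 0.0237% in db/+, and 1.89% to 2.58% in WT. The sample titles open with the letter H in all db/db libraries and WT 3, and with G in all db/+ libraries, WT 1 and WT 2. The labels do not say what the letter stands for. Both letters occur only in WT. A fit with the letter as a covariate therefore takes the effect of the letter from WT 3 against WT 1 and WT 2. Between db/db and db/+ libraries alone, the letter and genotype cannot be told apart. Y-linked sums differed far more within db/db than within db/+ or WT, whose libraries had 219 to 417 CPM. A fit with their log2 as a covariate therefore takes their effect mainly from db/db 1 against db/db 2 and db/db 3. The share of Gm42418 and Lars2 and the acinar level were also highest in db/db 1, so that fit does not adjust for sex alone. The hormone genes that define islet cells, Ins1, Ins2, Gcg and Sst, were detected in each library. The summed level of 14 acinar markers was 18320 to 50210 CPM in db/db, 15340 to 35000 CPM in db/+ and 6661 to 12510 CPM in WT. The sum of 9 beta cell markers was 91790 to 124900 CPM in db/db, 102800 to 114900 CPM in db/+ and 82470 to 120300 CPM in WT. Ins1, Ins2 and Iapp made up most of it, with means of 25480, 51590 and 33670 CPM in db/db. Ins1 and Ins2 were not called in db/db against either group, and Iapp rose. Mafa, Slc2a2, G6pc2, Ucn3, Pdx1 and Nkx6-1 fell against either group. Of the 5 alpha cell markers, all fell in db/db against either group, with sums of 7658 to 9012 CPM in db/db, 15580 to 18730 CPM in db/+ and 9593 to 17680 CPM in WT.

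Of the 10 genes, 5 fell and 2 rose in db/db against WT, and the same counts were found against db/+. Over all tested genes 41.7% were called in db/db against WT (21.8% higher and 19.9% lower) and 40.3% in db/db against db/+ (20.6% higher and 19.7% lower). Slc30a8, Slc30a1, Slc30a9, Mt1 and Mt2 were the genes that fell, and Slc30a7 and Slc39a14 those that rose, in both comparisons. Slc30a5, Slc30a6 and Slc39a6 passed the test in neither. The median log2 fold change of the 10 genes was -0.21 against WT, beside 0.01 over all tested genes, and -0.17 against db/+, beside 0.01. The 7 called genes showed no overlap between db/db and either other group, which held for 51.5% of all tested genes against WT (26.2% higher and 25.3% lower) and 52.2% against db/+ (26.2% higher and 26% lower).

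**Figure D1:**
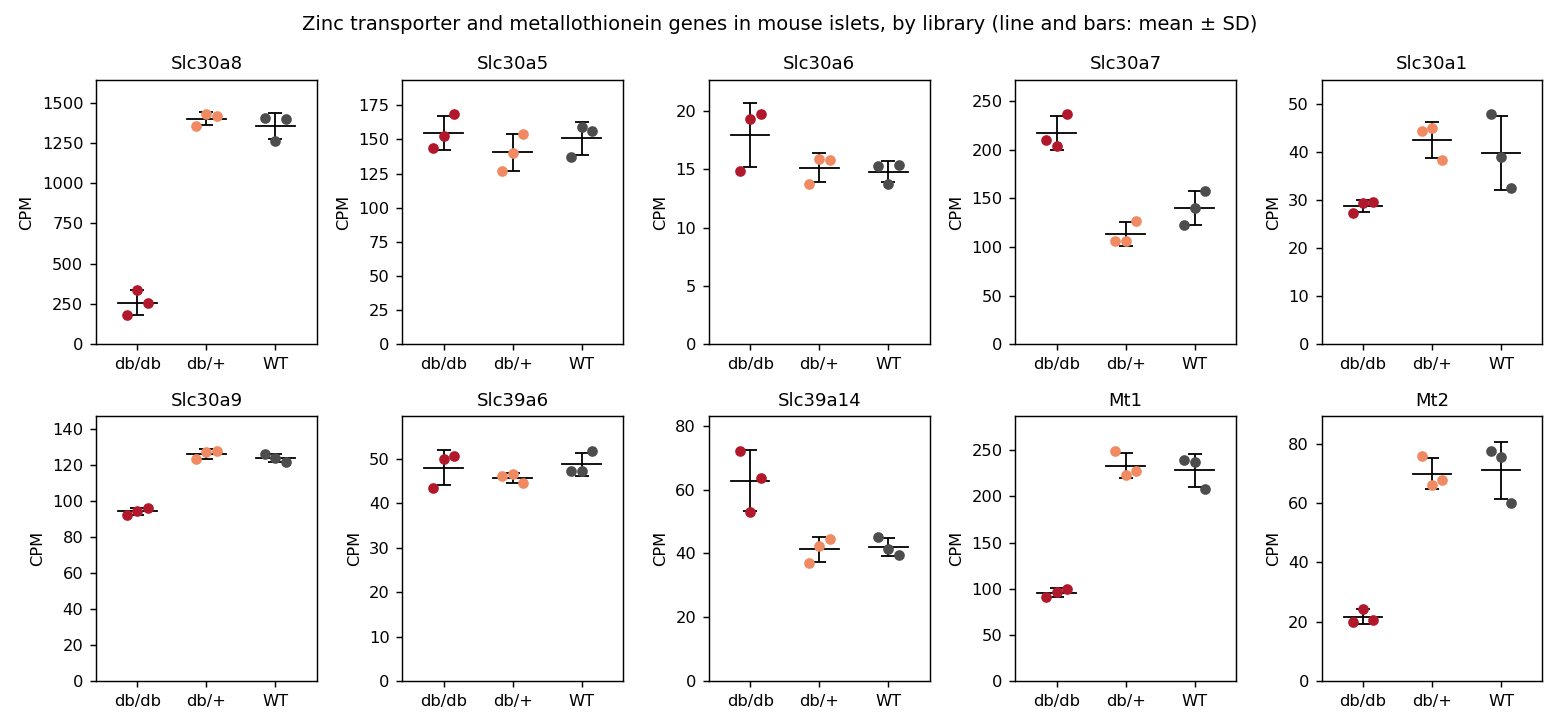
Level of each of the 10 genes in CPM (vertical axes, from 0) in the 3 db/db, 3 db/+ and 3 WT libraries. Points are libraries, and lines and bars are mean ± SD. Slc30a8 stood at 184 to 334 CPM in db/db and above 1260 CPM in the 6 other libraries, and Mt1 and Mt2 were lower in each db/db library than in any other.

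Slc30a8 encodes the transporter that loads zinc into insulin granules (chromosome 15, 52295553 to 52335798, GRCm38). It stood at 184, 334 and 259 CPM in db/db, at 1357, 1428 and 1417 CPM in db/+, and at 1407, 1261 and 1400 CPM in WT. All db/db libraries were far below all others, and db/+ overlapped WT. The gene fell by 2.39 ± 0.18 against WT (adjusted p = 1.93e-06) and by 2.44 ± 0.18 against db/+ (adjusted p = 1.92e-06), which is 5.24-fold and 5.41-fold lower. The lowest value was in db/db 1, the library with the most acinar counts. With that library left out, the log2 fold change was -2.19 against WT. With the acinar markers as a covariate it was -2.05 (adjusted p = 2.49e-04), and with the title letter as a covariate -2.44 (adjusted p = 9.16e-05).

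Slc30a8 was also lower relative to Ins2, the main insulin gene of mouse, within each library. Ins2 itself had a log2 fold change of 0.04 against WT (adjusted p = 0.86) and 0.03 against db/+ (adjusted p = 0.872). The ratio is therefore largely a restatement of the fall of Slc30a8. There were 4.001, 5.94 and 4.92 Slc30a8 counts per 1000 Ins2 counts in db/db. The ratio was 26.7, 29.4 and 27.4 in db/+, and 36.8, 21.3 and 26.3 in WT. Again the db/db libraries did not overlap the others, and WT was the most variable group. The log2 difference was -2.49 against WT and -2.51 against db/+. Each gave p = 0.1 in a two-sided exact permutation test over libraries, the smallest that 3 against 3 allows. In whole islets, fewer cells of a type and less RNA per cell cannot be told apart.

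**Figure D2:**
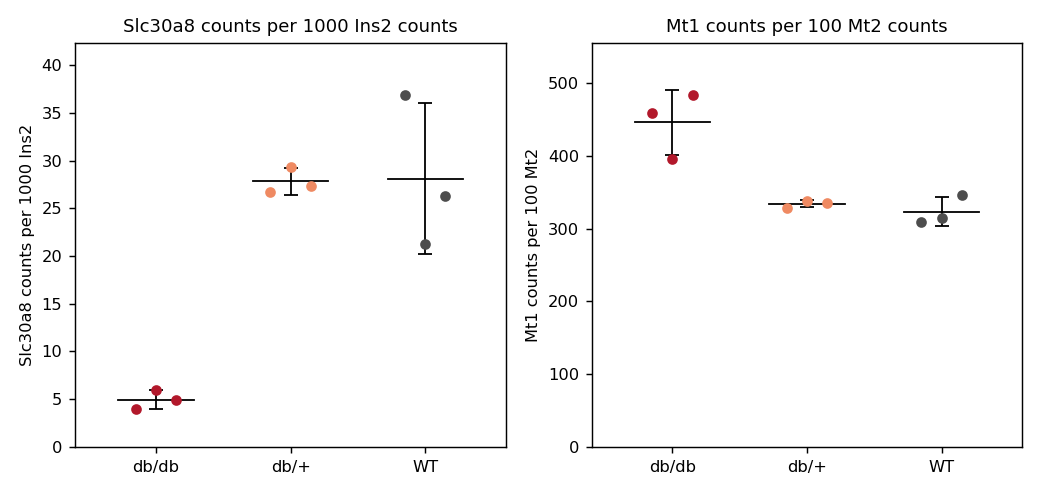
Ratios of counts within a library (vertical axes, from 0): Slc30a8 counts per 1000 Ins2 counts, and Mt1 counts per 100 Mt2 counts, in 3 db/db, 3 db/+ and 3 WT libraries. Points are libraries, and lines and bars are mean ± SD; the db/db libraries lie between 4.001 and 5.94 for Slc30a8 and between 396 and 483 for Mt1, apart from the others in both.

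Among the other genes of the Slc30 family, those of the early secretory pathway did not follow Slc30a8. Slc30a7 encodes a transporter that brings zinc into the Golgi apparatus (chromosome 3, 115938973 to 116007414). It stood at 211, 203 and 237 CPM in db/db, at 106, 106 and 127 CPM in db/+, and at 123, 140 and 157 CPM in WT. Every db/db library was higher than every other. Slc30a7 rose by 0.63 ± 0.10 against WT (adjusted p = 2.86e-04) and by 0.94 ± 0.10 against db/+ (adjusted p = 1.02e-05). The proteins of Slc30a5 and Slc30a6 act as a pair that carries zinc into the same compartments. Slc30a5 averaged 155 ± 12.5 CPM in db/db, 141 ± 13.5 CPM in db/+ and 151 ± 12.0 CPM in WT, with a log2 fold change of 0.04 ± 0.09 against WT (adjusted p = 0.758). Slc30a6 stood at 14.8, 19.3 and 19.7 CPM in db/db, at 13.7, 15.9 and 15.8 CPM in db/+, and at 15.3, 13.7 and 15.3 CPM in WT. Slc30a6 was called on leaving out db/db 1, its lowest db/db library, with a log2 fold change of 0.40 against WT (adjusted p = 0.0252; leaving out any other single library gave 0.108 to 0.323) and 0.37 against db/+ (adjusted p = 0.0350). It was also called against db/+ with db/db 1, WT 1 and WT 3 all left out (0.36, adjusted p = 0.0429). With all libraries its log2 fold change was 0.28 ± 0.13 against WT (adjusted p = 0.103) and 0.25 ± 0.13 against db/+ (adjusted p = 0.148).

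Slc30a9 encodes a transporter that takes zinc out of mitochondria (chromosome 5, 67306955 to 67356142). It stood at 91.9, 94.4 and 96.2 CPM in db/db, at 123, 127 and 128 CPM in db/+, and at 126, 124 and 122 CPM in WT. The libraries of a group lay close together, and db/db was below both other groups. Slc30a9 fell by 0.39 ± 0.06 against WT (adjusted p = 3.04e-04) and by 0.42 ± 0.06 against db/+ (adjusted p = 1.81e-04), a 1.31-fold and 1.34-fold difference. With the title letter as a covariate the call of Slc30a9 against db/+ ended at adjusted p = 0.0505, with a log2 fold change of -0.38.

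Slc30a1 encodes the exporter of the plasma membrane (chromosome 1, 191906697 to 191913248). It stood at 27.3, 29.4 and 29.5 CPM in db/db, at 44.3, 45.0 and 38.3 CPM in db/+, and at 47.9, 39.0 and 32.4 CPM in WT. No db/db library overlapped the others, and WT 3, the WT library with a title in H like those of db/db, was the closest to db/db. Slc30a1 fell by 0.47 ± 0.13 against WT (adjusted p = 0.00967) and by 0.56 ± 0.13 against db/+ (adjusted p = 0.00328). With the title letter as a covariate the log2 fold change of Slc30a1 was -0.17 against WT (adjusted p = 0.425) and -0.14 against db/+ (adjusted p = 0.676). Both values rest on how WT 3 differed from WT 1 and WT 2. The call against WT also ended with the acinar covariate (adjusted p = 0.140), with the Y-linked covariate (adjusted p = 0.0553) and without db/db 1 and db/db 2 together (adjusted p = 0.115), which also ended the call against db/+ (adjusted p = 0.0692). That fit keeps 1 db/db library, assumed to vary like the other groups, and its log2 fold changes were -0.44 against WT and -0.53 against db/+, close to those with all libraries. Slc30a1 overlaps 1700034H15Rik by 831 bases and Slc30a7 overlaps Gm6649, and neither partner was above 1.44 CPM in any library.

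Levels of different genes were compared per kilobase of annotated exon. On this scale Slc30a8 was the highest of the 10 genes in each group, at 131 ± 38.1 CPM per kb in db/db, 711 ± 19.5 in db/+ and 688 ± 41.8 in WT. In WT the order was then Mt1 (303 CPM per kb), Mt2 (128), Slc30a5 (47.5), Slc30a7 (15.5), Slc30a9 (12.6), Slc39a6 (12.0), Slc30a1 (7.58), Slc30a6 (6.94) and Slc39a14 (3.98). Slc30a9 and Slc39a6 overlapped in WT, as did Slc30a1 and Slc30a6. In db/db, Slc30a8 (93.2 to 169 CPM per kb) overlapped Mt1 (121 to 133). Slc30a5 (48.7 CPM per kb) stood above Mt2 (38.9) in db/db, the reverse of the order in WT. Over the 10 genes of the Slc30 family with an exon length, the summed level was 202 to 283 CPM per kb in db/db, 783 to 823 in db/+ and 744 to 814 in WT. Slc30a8 made up 46.1%, 59.9% and 50.6% of that sum in db/db. Its share was 87.5% to 88.0% in db/+ and 86.0% to 87.9% in WT. Slc30a7 took 7.97% to 11.6% in db/db, 1.42% to 1.71% in db/+ and 1.68% to 2.14% in WT. Shares were also higher in db/db for genes that did not rise, as the sum itself was lower. Slc30a5, which was not called, took 16.9% to 22.4% in db/db and 5.11% to 6.73% in the other libraries. Slc30a9, which fell, took 3.38% to 4.62% in db/db and 1.52% to 1.685% in the others.

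**Figure D3:**
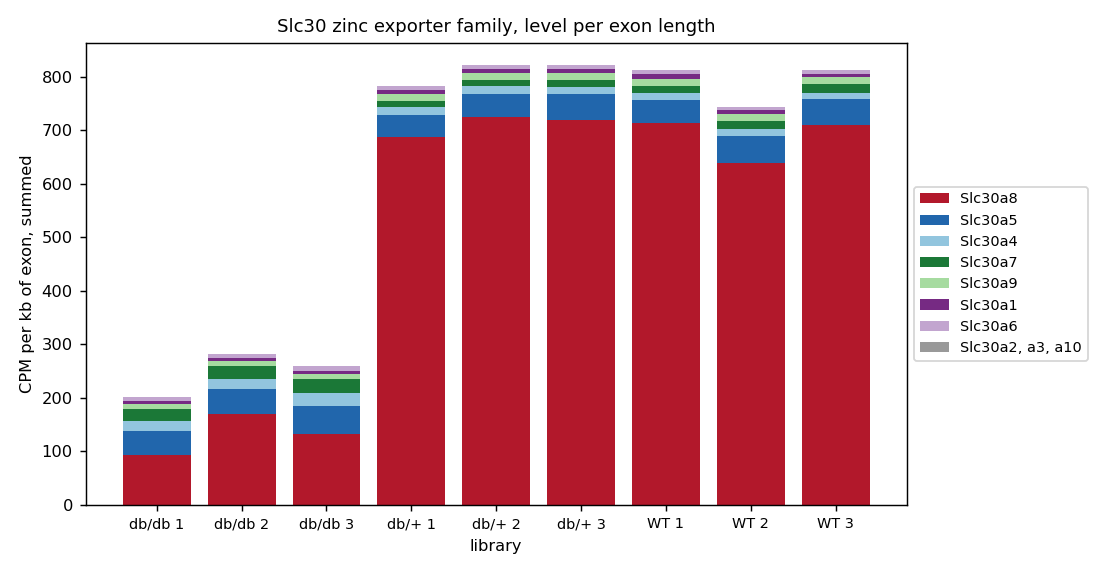
Summed level of the Slc30 family in CPM per kilobase of exon (vertical axis, from 0) in each of the 9 libraries, split by gene. The part of Slc30a8 is 46.1% to 59.9% of the bar in db/db and at least 86.0% in the other libraries.

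The Slc39 genes bring zinc into the cytosol. Slc39a14 encodes an importer of zinc, iron and manganese (chromosome 14, 70303467 to 70351452). It stood at 72.2, 52.9 and 63.6 CPM in db/db, at 37.03, 42.2 and 44.5 CPM in db/+, and at 45.1, 41.5 and 39.5 CPM in WT. The lowest db/db library was above the highest of the others. Slc39a14 rose by 0.58 ± 0.11 against WT (adjusted p = 0.00105) and by 0.61 ± 0.11 against db/+ (adjusted p = 7.60e-04). Its highest library was db/db 1, which had the most acinar counts, and with the acinar covariate the value against WT was 0.21 (adjusted p = 0.321), while against db/+ it was 0.53 (adjusted p = 4.43e-04). Slc39a6, an importer gene of the plasma membrane, stood at 43.5, 50.04 and 50.7 CPM in db/db, at 46.3, 46.7 and 44.5 CPM in db/+, and at 47.3, 47.3 and 51.8 CPM in WT. Its log2 fold change was -0.02 ± 0.08 against WT (adjusted p = 0.876) and 0.07 ± 0.08 against db/+ (adjusted p = 0.536).

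Mt1 and Mt2 are neighbours on chromosome 8, with 5315 bases between them. Their promoters, with that of Slc30a1, are shown because these genes are known targets of the factor encoded by Mtf1. They were chosen with their fall in db/db known, so the matches in them are a description. Each line gives 250 bases before to 50 bases after the start site, 5′ to 3′ on the strand of the gene, from RefSeq on GRCm38.p6. They lie at chr8:94178839-94179138 (Mt1), chr8:94172368-94172667 (Mt2) and chr1:191906531-191906830 (Slc30a1), each on the plus strand. For Mt1 and Slc30a1 the start site used lies downstream of the start of the annotated gene (94178883 and 191906697). The matches hold for these windows only. Capitals mark the core of the metal response element, TGCACNC or TGCGCNC, on either strand; on the minus strand it reads as the reverse complement.
Mt1: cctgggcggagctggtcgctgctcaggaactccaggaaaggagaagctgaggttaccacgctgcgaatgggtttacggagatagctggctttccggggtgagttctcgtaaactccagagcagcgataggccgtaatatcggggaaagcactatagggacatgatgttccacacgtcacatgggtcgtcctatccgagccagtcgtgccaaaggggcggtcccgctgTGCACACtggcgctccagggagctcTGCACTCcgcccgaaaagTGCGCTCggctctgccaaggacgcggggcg
Mt2: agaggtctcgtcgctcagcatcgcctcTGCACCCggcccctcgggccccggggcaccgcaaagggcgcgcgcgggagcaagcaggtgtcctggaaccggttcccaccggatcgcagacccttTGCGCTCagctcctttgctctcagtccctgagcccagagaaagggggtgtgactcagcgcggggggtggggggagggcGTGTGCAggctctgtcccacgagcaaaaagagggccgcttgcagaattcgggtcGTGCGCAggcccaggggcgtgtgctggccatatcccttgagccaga
Slc30a1: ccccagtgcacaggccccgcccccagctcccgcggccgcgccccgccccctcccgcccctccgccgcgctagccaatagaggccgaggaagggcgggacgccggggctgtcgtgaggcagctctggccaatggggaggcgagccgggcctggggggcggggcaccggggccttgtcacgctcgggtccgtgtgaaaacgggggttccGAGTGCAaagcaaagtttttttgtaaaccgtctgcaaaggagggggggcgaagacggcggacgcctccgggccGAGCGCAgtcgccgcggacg
The core was found 3 times in the Mt1 window, 4 times in that of Mt2 and 2 times in that of Slc30a1, with no overlapping matches. Of 27025 promoter windows of this length, 1 per gene, 25.6% held at least 1 match, 7.11% at least 2, 2% at least 3 and 0.503% at least 4. Promoters were found for 7 of the 10 genes. Slc30a5 had 1 match, and Slc30a6, Slc30a7 and Slc30a9 had 0 in this window. Genes that rose in db/db also held matches. Slc30a4 had 3, and Mt3, Slc39a13 and each of the windows of Slc39a11 had 1, while Mtf1, which fell, had 0. A match is a run of letters and not evidence that the factor binds there.

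Mt1 stood at 90.7, 96.6 and 100 CPM in db/db, at 249, 224 and 228 CPM in db/+, and at 240, 238 and 208 CPM in WT. The highest db/db library was below the lowest of the others, and db/+ overlapped WT. Mt1 fell by 1.25 ± 0.08 against WT (adjusted p = 7.92e-08) and by 1.29 ± 0.08 against db/+ (adjusted p = 6.42e-08), which is 2.39-fold and 2.44-fold lower. Mt2 stood at 19.8, 24.4 and 20.7 CPM in db/db, at 75.8, 66.1 and 67.8 CPM in db/+, and at 77.5, 75.5 and 60.0 CPM in WT. It fell by 1.72 ± 0.12 against WT (adjusted p = 1.17e-07) and by 1.69 ± 0.12 against db/+ (adjusted p = 1.44e-07). WT 3 was the lowest WT library for both genes, and with the title letter as a covariate the values against WT were -1.12 for Mt1 (adjusted p = 1.19e-05) and -1.47 for Mt2 (adjusted p = 9.81e-06).

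The ratio of the metallothionein genes also differed in db/db. There were 459, 396 and 483 Mt1 counts per 100 Mt2 counts in db/db, 329, 338 and 336 in db/+, and 309, 315 and 347 in WT. All db/db libraries were above all others, with a log2 difference of 0.46 against WT and 0.41 against db/+. Both gave p = 0.1 in a two-sided exact permutation test, the smallest that 3 against 3 allows.

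**Figure D4:**
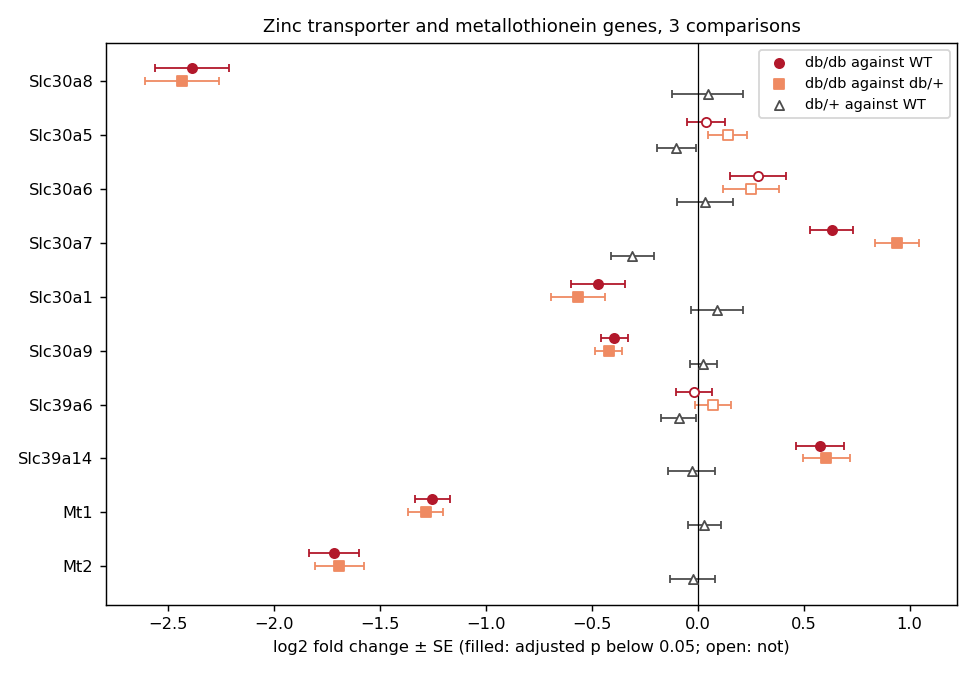
Log2 fold change ± SE (horizontal axis) of the 10 genes in db/db against WT, db/db against db/+ and db/+ against WT. Filled symbols passed adjusted p below 0.05. For db/db, 5 genes lie left of 0 and 2 right of 0 with filled symbols in both comparisons, and no symbol of db/+ against WT is filled.

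In db/+ against WT, 0 of the 10 genes were called by edgeR's quasi-likelihood test, against 1.43% of all tested genes. DESeq2 and limma-voom also called 0, and 1 gene, Slc30a7, had an unadjusted p below 0.05. Slc30a7 averaged 113 ± 12.2 CPM in db/+ and 140 ± 17.3 CPM in WT, and its log2 fold change was -0.31 ± 0.10 (adjusted p = 0.162). Without a filter on low counts its adjusted p was 0.0270. For Slc30a8 the log2 fold change between db/+ and WT was 0.05 ± 0.17, for Mt1 0.03 ± 0.08 and for Mt2 -0.02 ± 0.10. Only Slc39a6 had groups that did not overlap, with db/+ lower (10.4% of all tested genes were lower with no overlap, and 22.5% had none in either direction). The db/+ and WT libraries also differed in sex makeup, in acinar level and in the share of Gm42418 and Lars2, as given above.

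Other genes of zinc handling were taken from a list of 20, of which 15 were tested. Against WT, 7 rose, 2 fell and 6 did not pass, with a median log2 fold change of 0.50, where 21.8% of all tested genes were higher and 19.9% lower. Against db/+, 6 rose, 2 fell and 7 did not pass, with a median of 0.12, where 20.6% of all tested genes were higher and 19.7% lower. Leaving out db/db 1 gave 7 and 1 against WT, where 3468 of all genes were higher and 3115 lower. Against db/+ it gave 5 and 4, beside 3254 and 2888 over all genes. With the title letter as a covariate, 4 rose and 0 fell against db/+. At that setting 1007 of all genes were higher and 1026 lower, beside 3459 and 3314 without the covariate. With library totals as the only scale, 5 rose and 5 fell against WT, beside 2176 higher and 5317 lower over all genes. That scale moved the median of all genes to -0.22.

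Slc39a11, an importer gene whose product has been placed at the Golgi apparatus, stood at 112, 95.6 and 116 CPM in db/db, at 11.5, 16.8 and 13.0 CPM in db/+, and at 16.2, 13.4 and 14.7 CPM in WT. No other group came near db/db, and the gene rose by 2.86 ± 0.13 against WT (adjusted p = 4.33e-09) and by 2.97 ± 0.13 against db/+ (adjusted p = 4.01e-09). Slc39a11 overlaps Cog1 by 1023 bases, and Cog1 was lower in db/db, at 73.7 to 84.9 CPM, than in db/+ (123 to 130 CPM) and WT (123 to 134 CPM). It also overlaps Sstr2 by 6702 bases, which was at most 5.42 CPM in any library. The noncoding genes Gm51926, Gm42094, Gm51928 and Gm51927 overlap it too and have no row in the count table. Whether shared counts add to Slc39a11 was not tested. Mt3, a metallothionein gene best known from brain, lies 18469 bases from Mt2. Mt3 was at 8.65, 5.203 and 7.11 CPM in db/db, at 0.566, 0.4219 and 0.245 CPM in db/+, and at 0.317, 0.813 and 0.711 CPM in WT. It rose by 3.51 ± 0.37 against WT (adjusted p = 6.99e-06) and by 4.05 ± 0.39 against db/+ (adjusted p = 3.16e-06), while Mt1 and Mt2 fell. Mt4, the last gene of the cluster, had 0 counts in all 9 libraries, which allows up to 0.412 CPM.

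Slc30a4, a transporter gene of endosomes and vesicles, rose by 0.79 ± 0.11 against WT (adjusted p = 8.16e-05) and by 0.55 ± 0.11 against db/+ (adjusted p = 0.00132). The Slc30a4 call against db/+ ended under 2 of the 23 alternatives. Slc39a13, an importer gene of intracellular vesicles, rose by 0.66 ± 0.11 against WT (adjusted p = 2.86e-04) and by 0.63 ± 0.11 against db/+ (adjusted p = 4.13e-04). The Slc39a13 call against db/+ ended with the title letter (0.59, adjusted p = 0.0780) and with the Y-linked covariate (0.35, adjusted p = 0.0898). Slc39a9, a Golgi importer gene, rose by 0.82 ± 0.09 against db/+ (adjusted p = 7.99e-06) and by 0.50 ± 0.09 against WT (adjusted p = 4.65e-04). The Slc39a9 call against WT ended under 1 of the 23 alternatives. Mtf1 itself stood at 35.4, 42.9 and 37.5 CPM in db/db, at 48.4, 56.7 and 55.9 CPM in db/+, and at 53.7, 55.3 and 52.2 CPM in WT. It fell by 0.48 ± 0.09 against WT (adjusted p = 0.00115) and by 0.47 ± 0.09 against db/+ (adjusted p = 0.00122). The Mtf1 call against WT ended with the acinar covariate (-0.45, adjusted p = 0.0587) and that against db/+ with the title letter (-0.41, adjusted p = 0.130). Over the 23 alternatives its log2 fold change stayed between -0.70 and -0.42 against WT and between -0.70 and -0.41 against db/+. Mtf1 overlaps 1110065P20Rik by 316 bases, which was at 30.6 to 40.6 CPM in db/db, 24.01 to 26.8 CPM in db/+ and 19.8 to 26.7 CPM in WT. Slc39a3, an importer gene of the plasma membrane, fell by 0.24 ± 0.09 against WT (adjusted p = 0.0391) and by 0.41 ± 0.09 against db/+ (adjusted p = 0.00196). The smaller of these calls ended under 11 of the 23 alternatives, among them leaving out single libraries (adjusted p up to 0.150).

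**Figure D5:**
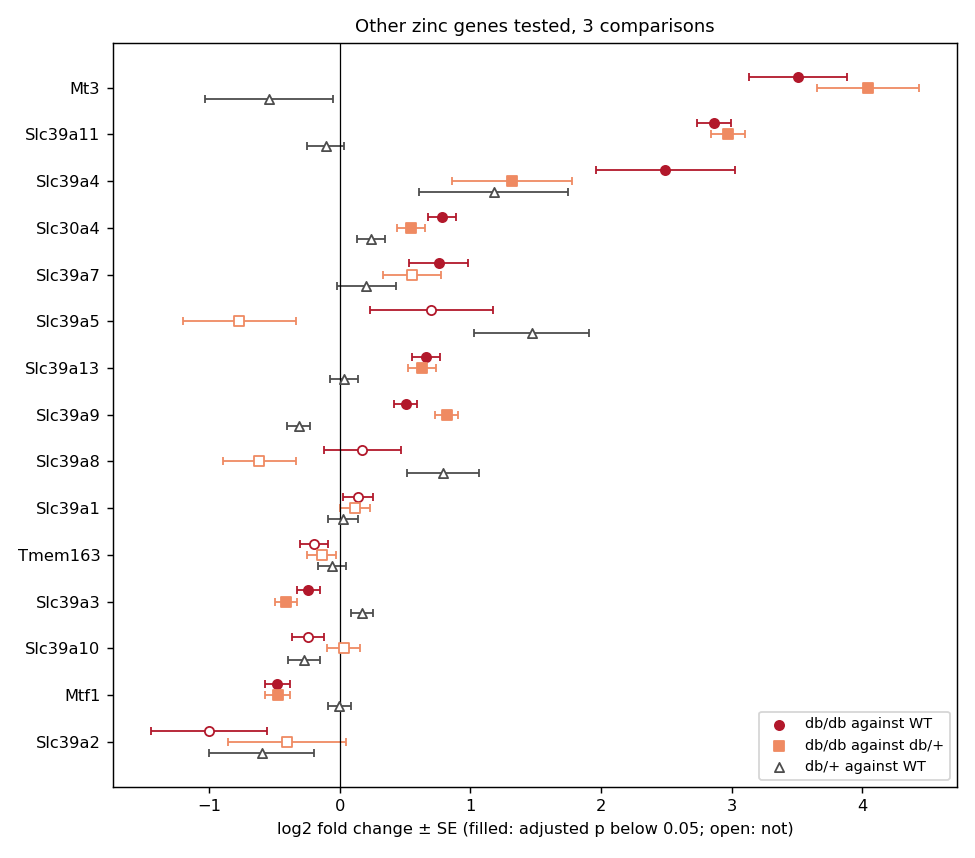
Log2 fold change ± SE (horizontal axis) of the 15 other zinc genes tested, in the 3 comparisons. Filled symbols passed adjusted p below 0.05. Mt3 and Slc39a11 lie farthest to the right for db/db in both comparisons, and no symbol of db/+ against WT is filled.

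The genes most like Slc30a8 over the 9 libraries were sought among 9597 other genes with at least 10 CPM on average, by the root mean square difference of centred log2 CPM. The closest were Sytl4 (0.0827), Maob (0.0982), Tmem229b (0.108), Carmil3 (0.114) and Hspa12a (0.116), where Slc30a8 itself had an SD of 1.25. Sytl4, which encodes a protein of the insulin granule surface, averaged 99.8 CPM in db/db, 523 CPM in db/+ and 525 CPM in WT. Maob, the gene of monoamine oxidase B, averaged 27.1 CPM in db/db, 147 CPM in db/+ and 138 CPM in WT. For Mt1, with an SD of 0.637, the closest were Josd2 (0.0885), Chn1 (0.0904), Zdhhc2 (0.0918), Dact2 (0.0921) and Flcn (0.0942). Zdhhc2 averaged 169 CPM in db/db, 403 CPM in db/+ and 360 CPM in WT. These measures describe 9 libraries that share 1 split by genotype, and no test was made.

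Markers of other cell types also differed in db/db. Over all tested genes 21.8% were higher and 19.9% lower against WT, and 20.6% higher and 19.7% lower against db/+. Of the 6 duct markers, 6 were higher in db/db against both groups. Their sums were 1188, 655 and 732 CPM in db/db 1, db/db 2 and db/db 3, 267 to 291 CPM in db/+ and 257 to 270 CPM in WT. Of 8 stellate cell and pericyte markers, 6 rose against WT and 7 against db/+, with sums of 736 to 1869 CPM in db/db, 227 to 336 CPM in db/+ and 230 to 319 CPM in WT. Of 14 acinar markers, 8 rose against WT and 0 were called against db/+. Of 8 macrophage markers, 2 rose against WT and 3 against db/+, with sums of 157 to 256 CPM in db/db, 97.4 to 122 CPM in db/+ and 98.1 to 137 CPM in WT. Endothelial markers were divided, with 3 of 8 higher and 1 lower against WT, 4 higher and 1 lower against db/+, and sums of 602 to 797 CPM in db/db, 570 to 623 CPM in db/+ and 574 to 628 CPM in WT. Of 4 delta and PP cell markers, 1 fell against WT and 2 against db/+, with sums of 2317 to 2792 CPM in db/db, 3079 to 3910 CPM in db/+ and 2661 to 3226 CPM in WT. Of 9 beta cell markers, 6 fell and 1 rose against either group. None of the markers of these lists was at 0 in any library. Apart from the acinar covariate, the part of these cell types in the results was not tested.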

How the data were processed

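RNA sequencing of islets gave 1 table of read counts per gene symbol, whole numbers that the authors deposited without normalisation. Per the labels' protocols, RNA was extracted with Trizol and libraries were made with ribosomal RNA removal. Per the submitters' processing notes, bcl2fastq 2.20.0.422 and TopHat2 2.0.14 were used with mm10. For the counting program, the annotation and the strand setting no source was at hand (not given in the sources used here). Overlapping genes can therefore share counts. The full strain label is not reported here. The table has 1 column that matches no sample, which was not used.

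The members and gene lists were chosen with earlier results of these data known. Genes were kept by filterByExpr, scaled with TMM, and fitted over all 9 libraries with 1 term per group in edgeR 4.0.16 (R 4.3.3, robust quasi-likelihood, 6 residual degrees of freedom, common biological coefficient of variation 0.129). P-values were two-sided. SE came from the fold change and the F statistic. They measure the spread between libraries, which may be technical, and floors cover counting error only. Alternatives used DESeq2 1.42.0, limma 3.58.1 (voom), other scalings and filters, covariates, and left-out libraries. The script was tested on simulated data. CPM per kb used exon lengths of GENCODE vM1, an annotation of another assembly. Positions and promoters are from RefSeq on GRCm38.p6, the assembly of mm10. Named genes are all 10 members and the 5 genes closest to Slc30a8 and to Mt1 (log2 of CPM plus 0.5). From the other zinc genes, up to 4 risen and 4 fallen with the smallest adjusted p in each db/db comparison are named. Of the copper and iron genes called, only some of those with the smallest adjusted p are named. Figures were drawn with matplotlib 3.10.9.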

Additional observations from a re-analysis of the deposited data

How the results depend on the processing

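No paired analysis was possible because the labels give no replicate numbers. Over 23 alternatives, 10 of the 14 calls among the 10 genes kept their direction and their side of the threshold, those of Slc30a8, Slc30a7, Mt1 and Mt2 in both db/db comparisons, Slc30a9 against WT and Slc39a14 against db/+. The other 4 calls ended in 8 values in all, named in the report, and the cause was not tested. The count of members called was 5 to 8 in db/db against WT and in db/db against db/+, and in db/+ against WT it was 0 except for 1 without a low-count filter (Slc30a7). Library totals alone moved the median of all genes to -0.22 in db/db against WT.

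All genes called in db/db against WT were 7018, with 4425 under the title letter covariate, 3617 under the acinar covariate and 4449 without the libraries that held both Xist and Y-linked counts. Against db/+ 6773 were called, with 2033 under the title letter, 4433 under the Y-linked covariate and 4511 without db/db 1 and db/db 2. In db/+ against WT 240 were called, with 768 without a low-count filter, 633 by DESeq2, 1.2e+02 by limma-voom, 45 under the title letter, 105 under the acinar and 399 under the Y-linked covariate, 97 without the libraries that held both Xist and Y-linked counts, and 23 to 430 with 1 library left out (the low value without db/+ 1, the high one without db/db 1).

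Values that changed direction belonged to results with no call. In db/db against WT, Slc30a5 was -0.17 on library totals, -0.0034 without the filter, -0.013 under the title letter, -0.083 under the Y-linked covariate and -0.030 to 0.089 with 1 library left out, and Slc30a6 was -0.032 under the Y-linked covariate. Slc39a6 was 0.16 under the acinar covariate, 0.083 without the libraries that held both Xist and Y-linked counts, 0.045 without db/db 1 and db/db 2, and -0.062 to 0.046 with 1 library left out. In db/db against db/+, library totals gave -0.079 for Slc30a5 and -0.15 for Slc39a6, the title letter -0.060 for Slc39a6, and the Y-linked covariate -0.11 for Slc39a6 and -0.099 for Slc30a6. In db/+ against WT, the title letter gave -0.033 for Slc30a1 and -0.032 for Mt1, the acinar covariate 0.054 for Slc39a6 and 0.030 for Mt2, and leaving out the libraries that held both Xist and Y-linked counts -0.024 for Mt1. With 1 library left out, the range in db/+ against WT was -0.032 to 0.25 for Slc30a1, -0.031 to 0.067 for Mt1, -0.13 to 0.044 for Mt2, -0.088 to 0.045 for Slc39a14, -0.017 to 0.10 for Slc30a6 and -0.0030 to 0.074 for Slc30a8. The alternatives that leave out several libraries together were chosen after seeing the data. Without db/db 1 and db/db 2, 1 db/db library remained, and without the libraries that held both Xist and Y-linked counts, 1 WT library, each assumed to vary like the other groups.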

Other observations

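Genes of copper and iron handling, which share carriers and buffers with zinc, were called in both directions. Of 17 on the list, 16 were tested. Against WT 5 rose, 4 fell and 7 did not pass, where 21.8% of all tested genes were higher and 19.9% lower. Against db/+ 5 rose, 5 fell and 6 did not pass, where 20.6% were higher and 19.7% lower, while 0 were called in db/+ against WT by edgeR (5 had an unadjusted p below 0.05, and DESeq2 called 1). Over all genes 3670 rose and 3348 fell against WT, and 3459 and 3314 against db/+. Without db/db 1, 2 rose and 4 fell against WT (all genes: 3468 and 3115). With the acinar covariate 1 rose and 2 fell against WT (all genes: 1990 and 1627). With the title letter as a covariate 2 rose and 3 fell against WT (all genes: 2173 and 2252). Against db/+ it gave 0 and 2 (all genes: 1007 and 1026). With the Y-linked covariate 3 rose and 2 fell against WT (all genes: 2706 and 1999). Against db/+ it gave 2 and 2 (all genes: 2517 and 1916). Leaving out db/db 3, db/+ 1 or db/+ 2 gave 3 risen and 3 fallen against db/+ in each case. Over all genes these fits gave 3045 and 2610, 3103 and 2933, and 2765 and 2676. Tfrc, the gene of the transferrin receptor that brings iron into cells, stood at 47.8, 58.7 and 52.8 CPM in db/db, at 169, 184 and 176 CPM in db/+, and at 167, 178 and 169 CPM in WT. It fell by 1.69 ± 0.08 against WT (adjusted p = 6.04e-09) and by 1.73 ± 0.08 against db/+ (adjusted p = 5.97e-09). Slc40a1, the gene of the iron exporter ferroportin, stood at 19.2, 20.7 and 16.5 CPM in db/db, at 57.7, 61.9 and 28.5 CPM in db/+, and at 46.1, 54.5 and 37.7 CPM in WT, and its log2 fold change was -1.30 ± 0.31 against WT (adjusted p = 0.0125). The Slc40a1 call against WT ended under 5 of the 23 alternatives, with a log2 fold change of -0.78 under the acinar covariate (adjusted p = 0.305, the highest), and the call against db/+ under 4. The copper pump gene Atp7a fell by 0.56 ± 0.07 against WT (adjusted p = 4.70e-05) and by 0.40 ± 0.07 against db/+ (adjusted p = 8.28e-04). Atox1, the gene of a copper chaperone, rose by 0.80 ± 0.19 against WT (adjusted p = 0.00353) and by 0.83 ± 0.19 against db/+ (adjusted p = 0.00291). The Atox1 calls ended with the Y-linked covariate against WT (0.56, adjusted p = 0.143) and against db/+ (0.56, adjusted p = 0.171), and with the title letter against db/+ (0.88, adjusted p = 0.130).

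The summed level of 14 Slc39 genes was 123 to 133 CPM per kb in db/db, 76.6 to 81.4 in db/+ and 77.4 to 83.7 in WT. Slc39a11 made up 23.2% to 26.6% of that sum in db/db, 4.46% to 6.18% in db/+ and 4.93% to 6.23% in WT. The Slc30 sum was lower in db/db, where Slc30a8 averaged 131 CPM per kb, beside 711 in db/+ and 688 in WT. Slc30a4 and Slc30a7 rose in db/db against either group, and Slc30a1 and Slc30a9 fell. Mean levels of Slc30a5 and Slc30a6 were also higher in db/db, but neither gene was called in either comparison, and their libraries overlapped. Slc30a2, Slc30a3 and Slc30a10 averaged at most 0.25 CPM per kb. The summed level of the 4 metallothionein genes was 172 to 183 CPM per kb in db/db, 416 to 469 in db/+ and 386 to 458 in WT. These sums are descriptions, and no test was made of them.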
